A study of Mus musculus with 3 samples.

Results

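Peaks of 5-methylcytosine (5mC) enrichment near the distal ends of the mouse autosomes were examined in cardiomyocytes isolated from hearts after transverse aortic constriction (TAC) and after Sham surgery. A distal window was the last 5 Mb before the largest peak end seen on each of chromosomes 1 to 19 in either list, and a peak belonged to it by its midpoint. The rule used positions only, and the 19 windows held 7490 TAC and 6785 Sham peaks, 14275 of the 297993 peaks of both lists, or 4.79%. TAC cells came from male C57Bl6/J mice aged 8 weeks after 1 week of pressure overload, a duration given by the series title, and Sham cells from male C57Bl6/J mice aged 8 weeks. The third library, Input, was genomic DNA of the same cell type, strain, sex and age without antibody, and it entered only the peak calling. Each group was 1 library, and the number of mice behind a library is not stated by the labels. No test of TAC against Sham was therefore possible, no p-value is given, and every difference lacks a replicate check. Intervals are exact 95% intervals for counting error only, the limit given beside a count of 0 is 3 counts of the total, and neighbouring peaks are not independent.

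In methylated DNA immunoprecipitation sequencing (MeDIP-seq) an antibody against 5mC pulls down methylated fragments, so that a peak marks a stretch rich in methylated CG dinucleotides and gives no methylation level. Mouse autosomes carry their centromere at one end, and the distal window is the stretch next to the telomere of the other end. The telomere repeat itself carries no CG, and the subtelomeric DNA next to it is a known site of dense methylation in somatic cells. The distal end of chromosome 7 holds an imprinted cluster, in which methylation laid down in 1 parental germline keeps genes such as Igf2, H19, Kcnq1ot1 and Cdkn1c active on a single parental copy. A peak list from DNA cannot show whether the cells express cardiomyocyte markers, so the labelled cell type was not checked here.

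The sequences below are the 250 bases before an annotated transcript start, from RefSeq promoters of GRCm38.p6, the assembly that mm10 names. The Kcnq1ot1 stretch ends at the outer start of the annotated gene, whereas the starts of the other stretches are internal, 160 bases into the annotated span of Bicd1, 387 bases into that of Tmem267 and 8012 bases into that of Igf2. They are shown because a peak covered them in both lists and because they differ in CG content, although covered promoter windows with fewer CG exist as well. They are written 5′ to 3′ on the strand of the gene, and capitals mark each CG, which reads the same on both strands.
Kcnq1ot1, chr7:143296548-143296797, minus strand: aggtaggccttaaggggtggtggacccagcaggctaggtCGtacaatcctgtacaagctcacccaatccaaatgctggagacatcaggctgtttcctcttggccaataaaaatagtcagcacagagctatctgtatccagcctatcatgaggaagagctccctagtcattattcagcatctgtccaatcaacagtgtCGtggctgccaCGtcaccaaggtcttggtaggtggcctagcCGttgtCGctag
Igf2, chr7:142658805-142659054, minus strand: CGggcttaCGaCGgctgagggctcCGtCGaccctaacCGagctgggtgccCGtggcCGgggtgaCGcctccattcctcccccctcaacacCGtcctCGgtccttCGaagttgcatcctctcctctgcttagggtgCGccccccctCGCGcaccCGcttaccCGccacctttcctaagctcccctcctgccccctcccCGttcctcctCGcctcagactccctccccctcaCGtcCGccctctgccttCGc
Bicd1, chr6:149408734-149408983, plus strand: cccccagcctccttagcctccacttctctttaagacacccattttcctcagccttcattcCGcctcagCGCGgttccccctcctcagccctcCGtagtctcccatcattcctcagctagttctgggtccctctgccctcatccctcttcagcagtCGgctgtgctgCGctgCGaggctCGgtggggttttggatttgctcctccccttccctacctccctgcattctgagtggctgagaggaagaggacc
Tmem267, chr13:119488223-119488472, plus strand: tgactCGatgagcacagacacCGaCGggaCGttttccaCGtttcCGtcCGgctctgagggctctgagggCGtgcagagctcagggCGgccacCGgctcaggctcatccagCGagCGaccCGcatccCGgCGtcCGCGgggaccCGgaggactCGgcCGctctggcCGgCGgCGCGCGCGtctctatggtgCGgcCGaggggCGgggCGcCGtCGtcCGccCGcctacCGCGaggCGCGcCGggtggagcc

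The Tmem267 stretch held 39 CG, a number reached by 1.61% of the 31396 autosomal promoter windows of the table over the same 250 bases. The Igf2 stretch held 22, reached by 15.3%, the Bicd1 stretch 8, reached by 43.5%, and the Kcnq1ot1 stretch 5, reached by 56.0%. Peaks lay over every base of the Tmem267 stretch in both lists, over 161 bases in TAC and 42 bases in Sham of the Kcnq1ot1 stretch, over 250 and 241 bases of the Igf2 stretch, and over 250 and 193 bases of the Bicd1 stretch. The stretches were picked as covered and as differing in CG, so this range follows from the pick. The Kcnq1ot1 peaks lay mostly inside the gene, so the CG number of that stretch does not describe the whole peak.

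Distal windows carried more 5mC peaks per Mb than the rest of the same chromosomes in both libraries. In TAC they held 78.8 peaks per Mb, against 65.8 in the rest, a ratio of 1.198 (1.17 to 1.23), and in Sham 71.4, against 55.3, a ratio of 1.29 (1.26 to 1.32). Peaks covered 5.23% of the distal windows in TAC and 4.90% in Sham, against 4.17% and 3.60% of the rest. The 5 Mb at the opposite, centromere-side end were sparser than the distal windows, at 56.7 peaks per Mb in TAC and 45.6 in Sham. With the window shortened to the last 2 Mb the order turned, and distal density was 0.909 of the rest in TAC and 0.884 in Sham. The excess thus depended on how far the window reached inward.

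The excess of TAC peaks was smaller in the last 5 Mb than in the rest as a whole. The 7490 TAC and 6785 Sham distal peaks stood in a ratio of 1.10 (1.07 to 1.14), against 1.19 (1.18 to 1.20) in the rest and 1.24 (1.19 to 1.29) in the centromere-side windows. The TAC library had 1.16 times the tags of the Sham library, per the file headers, and its share in these ratios was not tested. With the window shortened to the last 2 Mb the distal ratio stood at 1.22 (1.15 to 1.30), and the 1.19 of the rest lay within that interval. In the last 5 Mb the ratio was 1.03 (0.995 to 1.06), against 1.09 in the rest, at a nearly equal depth-scaled threshold. When only as many first rows were taken from the TAC list as the Sham list holds, which sets the ratio of the whole lists to 1, the distal ratio was 0.954, against 1.0001 in the rest. The distal ratio thus stayed below that of the rest under both thresholds, while its side of 1 followed from how the lists were scaled.

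Single chromosomes departed widely from these pooled values. The distal ratio lay below that of the rest on 13 of 19 autosomes, and the exceptions were chromosomes 3, 10, 12, 13, 17 and 18. On chromosome 18 the distal window held 181 TAC and 77 Sham peaks, a ratio of 2.35 (1.79 to 3.11), against 1.18 in the rest of that chromosome. On chromosome 17 it held 184 and 94, a ratio of 1.96 (1.52 to 2.54). On chromosome 3 the numbers were 229 and 128, a ratio of 1.79 (1.43 to 2.24). These 3 windows held 0.8 to 2.6 protein-coding genes per Mb, fewer than the other 16. At the other extreme stood chromosome 11, where the distal window held 494 TAC and 544 Sham peaks, a ratio of 0.908 (0.802 to 1.03), with 21.8 genes per Mb. On chromosome 15, with 26.6 genes per Mb and the Krt and Hoxc clusters, the numbers were 462 and 464.

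**Figure D1:**
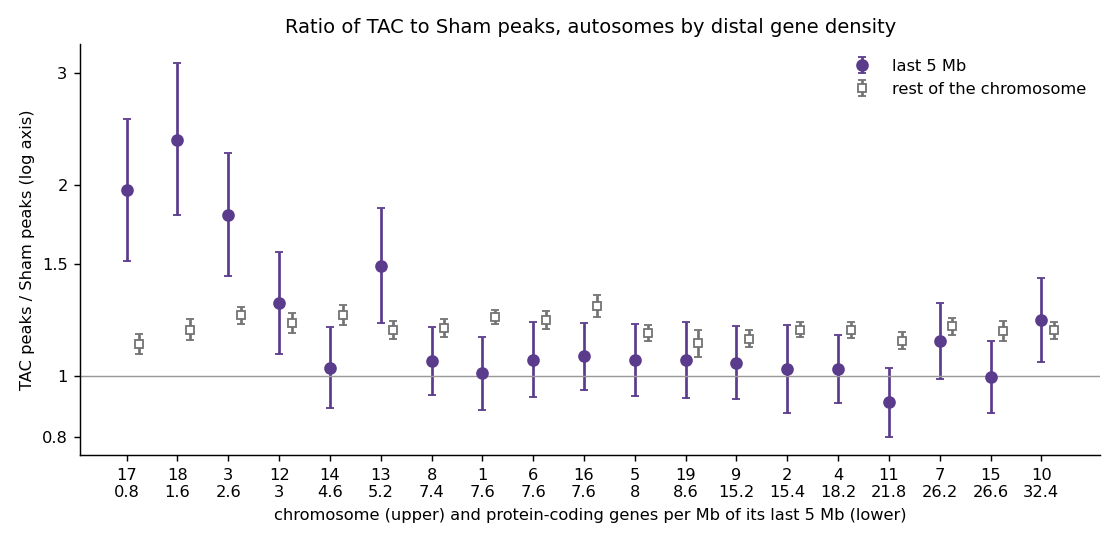
Ratio of TAC to Sham peaks (log axis) in the last 5 Mb (filled circles) and in the rest (open squares) of each autosome, with exact 95% intervals for counting error, ordered by protein-coding genes per Mb of the distal window. The gene-poor windows of chromosomes 17, 18 and 3 lie highest, at 1.96, 2.35 and 1.79, and chromosome 11 lies lowest, at 0.908.

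Across the 19 windows Spearman's rho between genes per Mb and the ratio was -0.59, a description of windows that share the same 2 libraries. Chromosome 10 went against this order. Its window was the richest in genes, at 32.4 per Mb, of which many are olfactory receptor genes, and it held 388 TAC and 317 Sham peaks, a ratio of 1.22 (1.05 to 1.42).

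Peak density split the windows in the same way. On 14 autosomes the distal window was denser than the rest in both lists, most of all on chromosome 16, with 111.8 peaks per Mb in TAC and 104.2 in Sham, 1.84 and 2.21 times the rest. On chromosomes 3, 12, 13, 17 and 18 it was sparser in both. These 5 sparse windows, grouped after their densities were seen, held 1098 TAC and 664 Sham peaks, a ratio of 1.65 (1.500 to 1.82). The other 14 held 6392 TAC and 6121 Sham peaks, a ratio of 1.04 (1.01 to 1.08). The density and the ratio share the Sham count, so that a low Sham count lowers one and raises the other. The rest of both sets of chromosomes had the same ratio, 1.19.

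**Figure D2:**
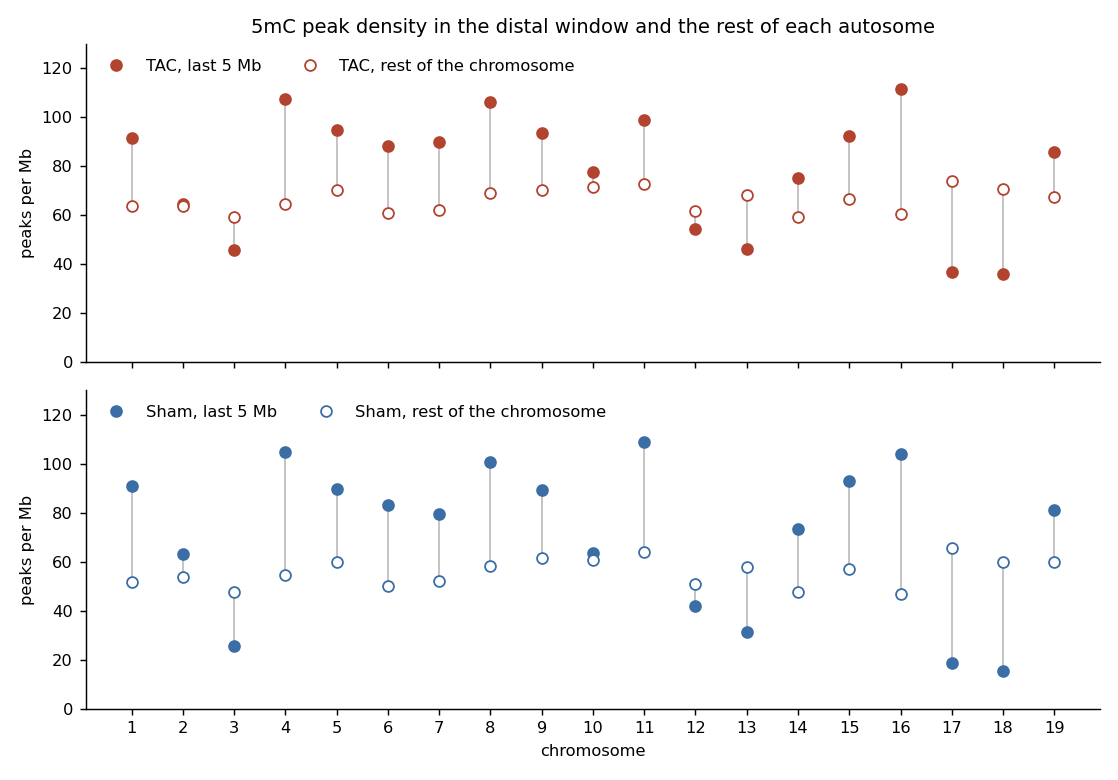
Peaks per Mb in the last 5 Mb (filled) and in the rest (open) of each autosome, TAC in the upper panel and Sham in the lower. Filled points lie above open ones on 14 of 19 chromosomes in each panel, and below them on chromosomes 3, 12, 13, 17 and 18.

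In the sparse windows 42.3% of TAC peaks overlapped a Sham peak by at least 1 bp, against 67.4% in the 14 dense windows. Of Sham peaks, 70.2% overlapped a TAC peak in both sets. Unshared peaks numbered 634 in TAC and 198 in Sham in the sparse windows, with a ratio of 3.20 (2.73 to 3.78), against 2085 and 1823 in the dense windows, with a ratio of 1.14 (1.07 to 1.22). Peaks of both lists were narrower in the sparse windows, with mean widths of 589 bp in TAC and 587 bp in Sham, against 677 and 697 bp in the dense windows. They also came later in the lists, with 5.01% of TAC and 5.87% of Sham peaks in the first 10% of list rows, against 16.8% and 15.3%. Windows of like gene density in the rest of these 5 chromosomes had a ratio of 1.31, so that the sparse distal windows exceeded them 1.26 times.

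Gene density was compared directly in 1 Mb windows, because it differs between distal windows (11.6 protein-coding genes per Mb) and the rest (8.43). Distal windows with 6 to 10 genes held 93.3 TAC and 90.4 Sham peaks per Mb, against 73.7 and 66.4 in other windows with 6 to 10 genes. With 11 to 20 genes the distal values were 100.6 and 98.6, against 74.2 and 70.7. Distal windows with 21 or more genes were no denser than others, at 72.1 and 68.2 peaks per Mb, against 73.3 and 68.2. The 5 distal windows without a gene held 42.4 and 21.8 peaks per Mb, against 45.3 and 25.4. The distal excess in density thus lay in windows of 3 to 20 genes.

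**Figure D3:**
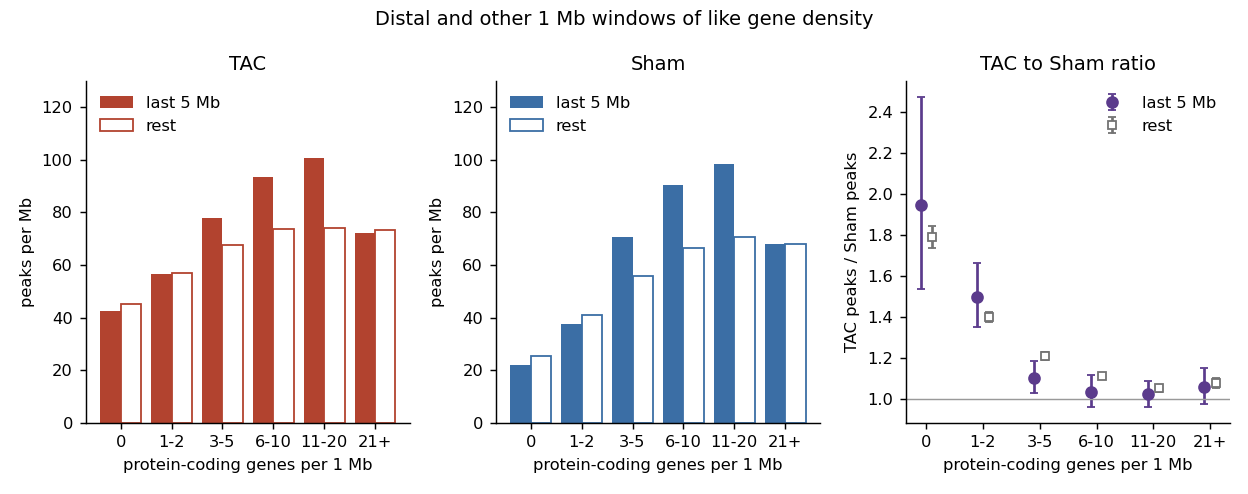
Peaks per Mb in TAC (left) and Sham (middle) and the TAC to Sham ratio with exact 95% intervals (right) for distal and other 1 Mb windows, by number of protein-coding genes. The distal bars stand above the others at 3 to 20 genes per window, and the ratio runs from 1.94 without a gene to 1.06 with 21 or more in distal windows.

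With the rest weighted to the gene density of the distal windows, its ratio was 1.16, and the distal ratio of 1.10 was 0.955 of it (0.924 to 0.987). Leaving out each autosome in turn moved that value between 0.948 and 0.963. At the nearly equal threshold it was 0.975 (0.942 to 1.01), an interval that holds 1. At like gene density the distal windows still held 1.16 times the TAC peaks and 1.21 times the Sham peaks of the rest.

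Within the distal window the last Mb stood apart. It held 977 TAC and 734 Sham peaks, 51.4 and 38.6 per Mb, against 85.7 and 79.6 per Mb in the 4 Mb next to it. Its ratio was 1.33 (1.21 to 1.47), against 1.08 (1.04 to 1.11), and without any 1 autosome it stayed between 1.30 and 1.38. The last Mb was sparser than the next 4 on 18 of 19 chromosomes in each list, and its ratio was the higher on 15 of 19. In the last Mb 52.6% of TAC peaks and 70.2% of Sham peaks were shared, with 463 TAC-only and 219 Sham-only peaks. Over the 19 chromosomes together the last Mb held 267 protein-coding genes, the most of the 5 bins, but they were unevenly spread. Chromosomes 4, 10 and 2 held 43, 38 and 33 of them, and chromosome 17 held 1. Whether gene number goes with the lower density on single chromosomes was not tested.

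**Figure D4:**
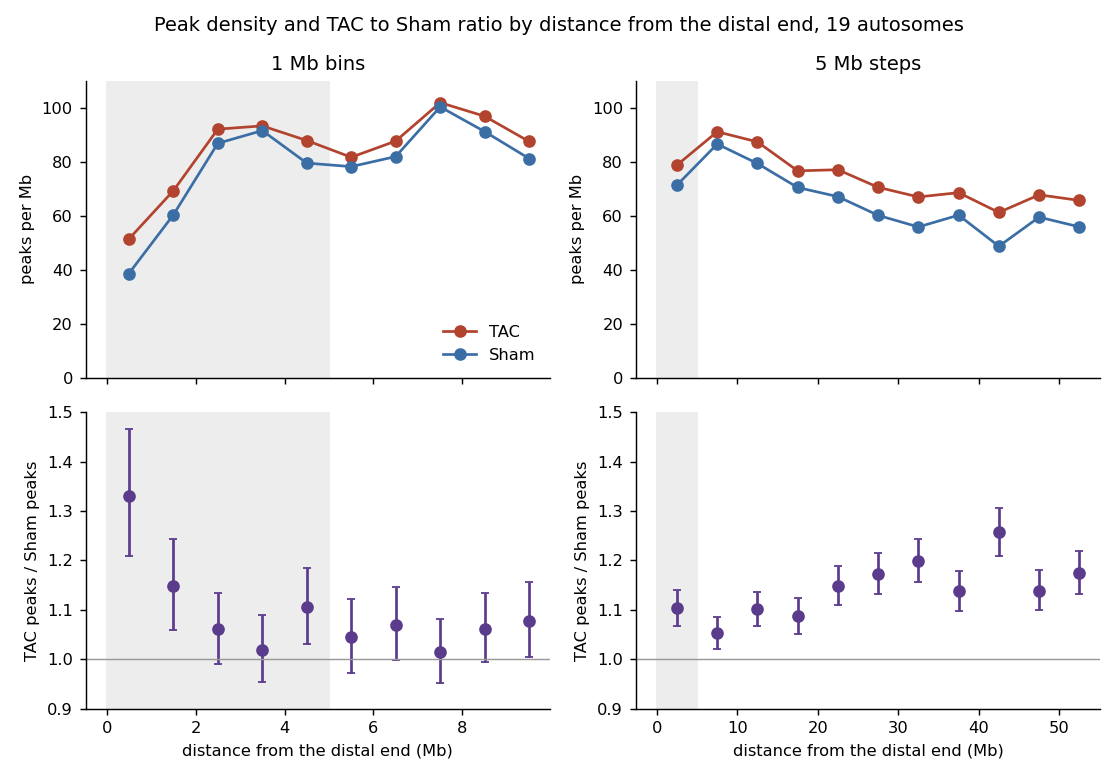
Peaks per Mb (upper panels, TAC and Sham) and TAC to Sham ratio with exact 95% intervals (lower panels) by distance from the distal end, in 1 Mb bins (left) and 5 Mb steps (right), summed over 19 autosomes; grey marks the distal window. Density is lowest and the ratio highest in the last Mb, at 51.4 and 38.6 peaks per Mb and 1.33.

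Seen in 5 Mb steps from the end, density did not peak in the distal window. The step from 5 to 10 Mb held 91.2 TAC and 86.6 Sham peaks per Mb, with a ratio of 1.05, below the 1.10 of the distal window, which ranked 8 of 11 steps in this ratio, and the steps beyond 20 Mb held 61.3 to 77.1 and 48.7 to 67.1. Of the measures compared, the distal window led the 11 steps only in the share of peaks in the first 10% of list rows and, for Sham, in the share of shared peaks. At the edge of the window, the 250 kb just inside held 427 TAC and 384 Sham peaks, and the 250 kb just outside 374 and 359. The ratio of inside to outside was 1.14 (0.991 to 1.32) in TAC and 1.07 (0.924 to 1.24) in Sham, so that both intervals hold 1.

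The last peak before the end was often the same in both lists. On 12 of 19 chromosomes the last TAC and the last Sham peak overlapped, with a median offset of 18 bp between their ends. The windows are therefore anchored on nearly the same base by both libraries on most chromosomes.

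Distal peaks were wider and lay earlier in the lists. Mean widths were 664 bp in TAC and 686 bp in Sham, against 633 and 651 bp in the rest. The most common width, 501 bp, was exceeded by 45.8% (44.7 to 47.0) of TAC and 47.1% (45.9 to 48.3) of Sham distal peaks, against 39.3% and 40.2% in the rest. The median was 501 bp in each set. The order of rows in the deposited lists runs from strong to weak peaks as far as the values show, a reading that no source states. By this order 15.1% (14.3 to 15.9) of TAC and 14.4% (13.6 to 15.3) of Sham distal peaks were in the first 10% of rows, against 9.85% and 9.82% of the rest. On chromosome 11 these shares reached 21.9% and 19.9%, and on chromosome 18 they were 1.10% and 0%, where 0 of 77 Sham peaks allows a share of up to 3.90%.

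Sharing was higher in distal windows in both lists, most of all for TAC peaks. Of TAC distal peaks 63.7% (62.6 to 64.8) overlapped a Sham peak, against 55.5% in the rest, and of Sham distal peaks 70.2% (69.1 to 71.3) overlapped a TAC peak, against 65.9%. Unshared distal peaks numbered 2719 in TAC and 2021 in Sham, and their ratio was 1.35 (1.27 to 1.43), against 1.55 in the rest. Early rows are shared more often everywhere, so the rest was weighted to the list positions of distal peaks. The difference then shrank to 63.7% against 60.3% for TAC peaks and to 70.2% against 69.8% for Sham peaks. In TAC the distal share was the higher in 10 of 10 equal steps of the list, and in Sham in 6 of 10.

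**Figure D5:**
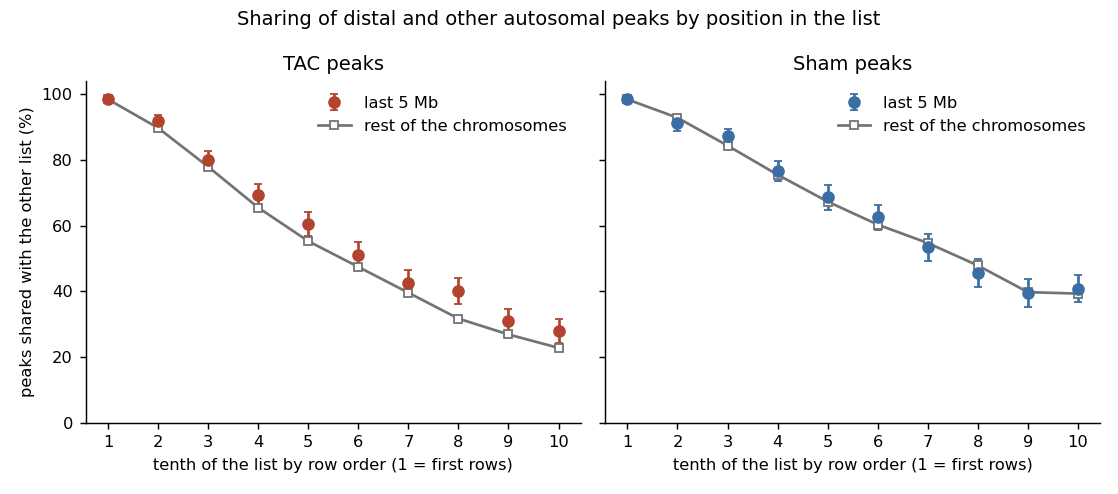
Share of TAC peaks (left) and Sham peaks (right) that overlap a peak of the other list, by steps of 10% of the list in row order, for distal windows (filled, with exact 95% intervals) and the rest (open). In TAC the distal points lie above the line of the rest in 10 of 10 steps, from 98.6% in the first to 27.8% in the last.

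Among chromosomes, 11 was the only one where the interval of the ratio of unshared peaks lay below 1, with 126 TAC-only and 178 Sham-only peaks. On chromosome 18 the numbers were 124 and 20, a ratio of 6.20. Unshared peaks were mostly narrow and late: 78.0% of TAC-only and 76.2% of Sham-only distal peaks were 501 bp wide. In the first 10% of rows 98.6% of distal peaks were shared in each list, close to the 98.4% of the rest. The unshared distal peaks there numbered 16 in TAC and 14 in Sham. The first of them in TAC, 1406 bp wide, lay in Pard3, a cell polarity gene on chromosome 8, and the next, 754 bp wide, in Grk5, a G protein-coupled receptor kinase gene on chromosome 19. In Sham the first, 2792 bp wide, lay 84.4 kb from Ttc34 on chromosome 4, and the next, 2140 bp wide, in Mib2, a ubiquitin ligase gene on the same chromosome. Both examples per list are the 2 first rows of their kind.

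The 5 widest distal peaks of each list were set beside what the other list holds there. A peak picked as the widest of one list tends to be the wider of the pair, so these widths are descriptions of single places. The widest in TAC was 7281 bp (chr13:119595706-119602986) within the annotated span of Tmem267, a transmembrane protein gene, 722 kb from the end of chromosome 13 and in row 4 of the TAC list. Sham had 3 peaks inside it, the widest of 1172 bp, which together covered 29.9% of it. At Lsp1, a leukocyte actin-binding protein gene on chromosome 7, the TAC peak was 4747 bp wide, and 2 Sham peaks, the wider of 3516 bp, covered 84.4% of it. At Galnt6, a glycosyltransferase gene on chromosome 15, the TAC peak was 3796 bp wide, and 2 Sham peaks, the wider of 2658 bp, covered 85.5% of it. Among the picks from the Sham list was a stretch 76.2 kb from Camk1g, a calmodulin-dependent kinase gene on chromosome 1, where 2 TAC peaks, the wider of 1052 bp, covered 47.9% of a Sham peak of 4358 bp. At Zbtb21, a zinc finger gene 153 kb from the end of chromosome 16, the TAC peak was 2795 bp and the Sham peak 3548 bp. At Muc6, a mucin gene on chromosome 7, the widths were nearly equal, 4567 bp in TAC and 4480 bp in Sham.

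Of the 5 earliest distal rows of each list, 4 named the same places. They were peaks in Ccdc57 on chromosome 11 (2716 bp in TAC and 2795 bp in Sham), in R3hdm2 on chromosome 10 (995 and 915 bp), 10.4 kb from Fmnl3, a formin gene on chromosome 15, and 63.8 kb from Dtl, a ubiquitin ligase adaptor gene on chromosome 1. The fifth in TAC was the wide Tmem267 peak in row 4, whose Sham counterpart came in row 188. The fifth in Sham was a peak of 2041 bp in Kcnab2, a potassium channel beta subunit gene on chromosome 4, in row 48, whose TAC counterpart came in row 56.

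Shared peaks were paired one to one to compare list position, inferred tags and width. Among 4659 distal pairs the TAC peak lay earlier in its list in 58.6% (57.2 to 60.1), close to 58.9% of pairs in the rest. Position is a percentage of rows, and the TAC list has 1.19 times the rows, with its unshared distal peaks mostly late. A shared peak thus tends to get a lower percentage in TAC without being stronger. The depth-scaled inferred tag number of TAC over Sham had a median log2 difference of 0.08 in distal pairs and 0.10 in the rest. Of the distal pairs 1638 were wider in TAC, 1699 wider in Sham and 1322 equal. Spearman's rho of list position between the lists was 0.72 over distal pairs and 0.66 over the rest, as descriptions across peaks.

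Pooled over the autosomes, distal peaks lay in genes more often than peaks of the rest. An annotated gene held the midpoint of 55.4% (54.3 to 56.5) of distal TAC peaks, against 51.1% in the rest, and of 60.2% (59.0 to 61.3) of distal Sham peaks, against 56.2%. The distal share was the higher on 12 of 19 autosomes in TAC and on 11 of 19 in Sham. The lowest distal share in TAC was 18.2%, on chromosome 18, and the highest 70.0%, on chromosome 11. With the window shortened to the last 2 Mb the distal shares were 50.2% (48.1 to 52.2) in TAC and 55.3% (53.1 to 57.6) in Sham. These intervals hold the 51.1% and 56.2% given above for the rest.

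The windows held 1102 protein-coding genes, of which 697 had a peak in either list, or 63.2%, against 66.5% in the rest. Both lists had peaks in 563 of them, TAC alone in 71 and Sham alone in 63. Of the 12933 genes with a peak in the rest, these numbers were 10270, 1463 and 1200. TAC had more peaks in 235 distal genes, Sham had more in 235, and 227 were equal. Over the rest of the autosomes TAC led in 5112 genes and Sham in 4314. Within distal gene bodies the peaks summed to 3457 in TAC and 3467 in Sham, so that the distal TAC excess lay outside protein-coding genes. This lean is not particular to the distal windows. Protein-coding genes held 45.9% of TAC and 50.6% of Sham distal peaks, and 41.9% and 46.7% in the rest.

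Of 323 distal genes with at least 5 peaks over both lists, 25 (7.74%) had at least 2-fold more in TAC, where the background over 6491 autosomal genes was 10.4%. In the other direction 15 (4.64%) had at least 2-fold more in Sham, where the background was 5.68%. Both shares were somewhat below the background, but no interval was computed for them and the difference was not tested. With at least 10 peaks per gene, 9 of 164 distal genes (5.49%) had 2-fold more in TAC, where the background was 6.35%, and 0 had 2-fold more in Sham, where it was 2.07%. At the nearly equal threshold the counts were 12 of 302 (3.97%) and 20 (6.62%), where the backgrounds were 7.13% and 8.34%.

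The genes with the most peaks were long, and most had like numbers in both lists. Camta1, a calmodulin-binding transcription activator gene on chromosome 4 (chr4:151059523-151861768), held 96 TAC and 111 Sham peaks over 802 kb. Ptprn2, a receptor-type phosphatase gene of secretory vesicles on chromosome 12, held 61 and 65. Cdh4, the R-cadherin gene on chromosome 2, held 65 and 58. Atrnl1 on chromosome 19 held 57 and 53, and Itpr2, encoding the inositol trisphosphate receptor calcium channel type found in cardiomyocytes, on chromosome 6, held 45 and 49. Ulk4 on chromosome 9 held 44 and 48, Pard3 43 and 47, and Rbfox3, a splicing regulator gene on chromosome 11, 43 and 42. For each of these the interval of the TAC share included an even split. An even split is only a fixed mark, since the whole TAC list held 1.19 times the peaks of the Sham list. Density over the gene body was highest in Cdh4 among them in TAC, at 14.2 peaks per 100 kb, and in Ulk4 in Sham, at 14.9 per 100 kb.

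The 5 genes whose interval of the TAC share had the lowest upper bound, a rule that favours genes with many peaks, each held more unshared Sham than unshared TAC peaks. Their shared peaks were nearly equal in number in both lists, so this follows from the pick. Genes with few peaks had lower shares, such as Avil on chromosome 10 with 1 TAC and 5 Sham peaks (16.7%). Hlcs, the holocarboxylase synthetase gene that attaches biotin to carboxylases, on chromosome 16 (chr16:94129306-94315239), held 24 TAC and 37 Sham peaks, of which 1 and 12 were unshared. Lrp1, an endocytic receptor gene on chromosome 10 (chr10:127538157-127621148), held 15 and 24, with 0 and 9 unshared. Septin9, a cytoskeletal GTPase gene on chromosome 11, held 30 and 40, with 6 and 16 unshared. In Dock9 the counts were 32 and 55. Its 25 unshared Sham peaks had a median list position of 60.2% and its 30 shared ones 17.4%. Only the interval of Dock9 (26.7% to 47.8%) lay below an even split of the TAC share, and those of Hlcs (27.1% to 52.7%), Lrp1 (23.4% to 55.4%), Septin9 (31.1% to 55.3%) and Camta1 (39.4% to 53.4%) spanned it. Over the whole lists the TAC share was itself above an even split, so this mark is not the share of the lists.

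The genes described next were picked for a high lower bound of that interval. Fgf14, whose protein regulates sodium channels, on chromosome 14 (chr14:123974441-124677686), held 28 TAC and 14 Sham peaks, a TAC share of 66.7% (50.5 to 80.4). Lrrc7, a postsynaptic scaffold gene on chromosome 3, held 14 and 4, a TAC share of 77.8% (52.4 to 93.6), and the 4 Sham peaks were all shared. Negr1, a neuronal adhesion gene on the same chromosome, held 39 and 24, with an interval that spans an even split (48.8% to 73.9%). Bicd1, a dynein adaptor gene on chromosome 6, held 11 TAC peaks and 1 Sham peak. Of those 11, 9 were 501 bp wide and 10 were unshared, at a median list position of 70.8%. The peak at the Bicd1 start printed above lies mostly before the annotated gene and is not among them. These genes were picked for their difference, so their values describe the extremes and test nothing. A lower bound just above an even split may still lie below the TAC share of the whole lists.

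The imprinted cluster of distal chromosome 7 was covered in both lists. Between H19 and Dhcr7 (chr7:142575530-143848410) lay 125 TAC and 110 Sham peaks, a ratio of 1.14 (0.872 to 1.48), or 98.2 and 86.4 per Mb. Of the TAC peaks 60.0% and of the Sham peaks 68.2% were shared. Of the 17 genes listed for the cluster, 11 held a TAC peak, 10 a Sham peak and 6 neither. The 6 without a peak were Ascl2, Cd81, Ins2, Nap1l4, Phlda2 and Tssc4.

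At the start of Kcnq1ot1, the long non-coding RNA that silences its neighbours on the paternal copy, both lists held a strong peak. It was 1825 bp wide in TAC (chr7:143294884-143296708) and 1527 bp in Sham (chr7:143295063-143296589), within the first 3.05% and 2.24% of rows. Kcnq1ot1 lies within Kcnq1, a cardiac potassium channel gene, so this peak counts for both, and Kcnq1 as a whole held 18 TAC and 13 Sham peaks. At Cdkn1c, a growth-restraining cell cycle inhibitor gene, the peak over the gene was 1210 bp in TAC (chr7:143459728-143460937) and 2147 bp in Sham (chr7:143459778-143461924). At H19, a non-coding RNA gene expressed from the maternal copy, TAC had a peak of 630 bp in the gene (chr7:142576655-142577284) and Sham one of 1368 bp that overlapped it (chr7:142576642-142578009). A TAC peak of 501 bp with no Sham counterpart (chr7:142578029-142578529) followed just beyond the end of that Sham peak. A further shared peak lay beyond the H19 gene end with the higher coordinate, 983 bp wide in TAC and 628 bp in Sham. Igf2, the fetal growth factor gene, held 3 TAC and 4 Sham peaks, of which 2 in each list were shared. Widths and list positions thus differed in both directions among these loci, and no spread between replicates is at hand to judge them.

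Gene families of the distal windows ranged from empty to dense. None of the 72 distal olfactory receptor (Olfr) genes, 58 on chromosome 10 and 14 on chromosome 7, held a peak in either list, which allows a share of up to 4.17%, against 87 of 1032 (8.43%) in the rest. The stretch of chromosome 10 that they span was not free of peaks, since 56 TAC and 22 Sham peaks lay between and around the genes, 41 and 7 of them unshared. None of the 43 distal immunoglobulin heavy chain V segments (Ighv) on chromosome 12 held a peak, nor did any of the 77 segments in the rest. Their distal span held 40 TAC and 17 Sham peaks. These genes are short, with median lengths of 0.939 kb for Olfr and 0.294 kb for Ighv, which limits how many peak midpoints can fall in them. Near-identical copies in both families may take few uniquely placed reads, and the part of that in the counts was not tested.

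Keratin genes on chromosome 15, which encode the filaments of epithelial cells, held peaks in both lists. Of 26 distal Krt genes 15 held a TAC peak, 16 a Sham peak and 17 (65.4%) a peak in either list. In the rest 20 of 27 Krt genes (74.1%) held one, so distal Krt genes did not stand out. The span of the distal Krt genes held 71 TAC and 66 Sham peaks, or 103.8 and 96.5 per Mb. Of the 9 Hoxc genes, homeobox genes that pattern the body axis, 3 held a peak in either list, with 4 TAC and 11 Sham peaks in all, and Hoxc4 and Hoxc6 were among the genes with at least 2-fold more in Sham. Of 66 distal miRNA genes none held the midpoint of a peak in either list, against 9 of 1070 in the rest.

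Stretches without any peak were few. At the inner edge of the chromosome 2 window both lists lacked peaks over 922 kb, which holds Zfp970, Zfp972 and 3 other genes, and this gap is counted from the window's edge only. On chromosome 13 TAC lacked peaks over 426 kb and Sham over 518 kb around Tcstv1, a gene expressed in the early embryo. On chromosome 3 Sham lacked peaks over 350 kb that include part of Lrrc7, where TAC had peaks.

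Cardiac and other gene lists had few members in the windows. From 36 sarcomere and Z-disc genes 3 were distal, the skeletal troponin genes Tnni2 (1 TAC and 1 Sham peak) and Tnnt3 (4 and 3), and Xirp1, an actin-binding gene of intercalated discs (1 and 1). From the calcium and ion channel list, Nalcn, a sodium leak channel gene on chromosome 14, held 13 TAC and 9 Sham peaks, and its interval of the TAC share (36.4% to 79.3%) spans an even split. Itpr2, Kcnq1 and Fgf14, described above, are members of the same list.

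Of the cardiac transcription factor list 4 genes were distal, with 40 peaks in each list. Prdm16 on chromosome 4 held 32 and 32, Ski 4 and 4, Gata5 3 and 4, and Isl1, a second heart field gene, 1 and 0. The 7 distal genes of the load and hypertrophy list held 48 TAC and 44 Sham peaks. Rptor, a subunit gene of the growth kinase complex mTORC1, held 26 and 22, and Grk5, whose kinase acts on receptors and hypertrophic signalling, 9 and 14. Nrp1 held 7 and 4, Itgb1 2 and 0, Agt, the angiotensinogen gene, 2 and 1, Erbb3 2 and 2, and Itga7 0 and 1. Fasn, the fatty acid synthase gene, held 0 and 1, and Rtel1, a telomere helicase gene within the last Mb of the chromosome 2 window, held none. No listed gene of the DNA methylation machinery lay in a distal window.

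Few markers of other heart cells lay in the windows. Of 16 fibroblast and matrix markers 2 were distal (7 TAC and 5 Sham peaks), of 13 endothelial markers 2 (22 and 23), and of 16 immune cell markers 7 (10 and 6). Ccr1, Ccr2 and Ccr3 held none, and Cx3cr1, a chemokine receptor gene on chromosome 9, held 4 and 1 and was among the genes with at least 2-fold more in TAC. None of the 8 smooth muscle and pericyte markers was distal. Whether the isolates differed in other cells, and whether that moved any of the values above, was not tested.

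Promoter windows of protein-coding genes, taken as 250 bases before to 50 after each annotated start on the autosomes other than chromosome 18, were covered more often near the ends than elsewhere. Of 1101 distal promoter windows, from 896 genes, 61 (5.54%, 4.26 to 7.06) were overlapped by a TAC peak and 51 (4.63%, 3.47 to 6.05) by a Sham peak, against 3.38% and 3.17% in the rest. Starts under the same peak are each counted, as those of Chid1 are, so the windows are not independent and the intervals are too narrow. Both lists covered 35 distal promoter windows, TAC alone 26 and Sham alone 16, against 348, 294 and 254 of 18984 in the rest. Windows with 5 to 14 CG were covered most, with 30 of 260 overlapped in TAC (11.5%) and 26 in Sham, against 5.58% and 5.93% in the rest. Those with 15 or more CG were covered in 3.26% and 2.57%, against 2.09% and 1.69%. Covered in both lists were, among others, the promoter windows of Sycp2, a gene of the meiotic synaptonemal complex on chromosome 2, of Agrn, the agrin gene on chromosome 4, and of Fgf3 on chromosome 7, examples chosen after their values were seen.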

How the data were processed

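The submitters' processing notes name build mm10 and the tools Picard, HOMER 4.5 and BWA 0.7.4-r385 for the MeDIP-seq reads. Each library had its own list, called against input in HOMER's mode for broad regions, per the file headers, with peak size 500 bp, minimum distance 1000 bp, 4-fold over input and a tag threshold of 12 in TAC and 11 in Sham. Total tags were 14658177 in TAC and 12585289 in Sham, and 34.67% and 29.88% of these fell within peaks by the same headers. Peak starts and ends were used as deposited. The deposited score is 1 in every row and was not used.

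Rows come in blocks sorted by position, 414 in TAC and 352 in Sham. Taking 8 tags in the last block and 1 more in each earlier block gives 99.3% of the tags in peaks in both lists. No source states this inferred tag number, which puts 3.25% of peaks in each list below the header's threshold. The nearly equal depth-scaled threshold rests on it, with 13 or more tags in TAC and 11 or more in Sham (8.87 and 8.74 per 10000000).

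Distal windows were the last 5 Mb before the largest peak end. Shared peaks overlap by at least 1 bp. Peaks went to genes by midpoint (RefSeq, GRCm38.p6), and a gene was distal by its own midpoint. Shares have Clopper-Pearson intervals, and ratios intervals from the binomial share, both at 95%. Named genes were the 10 with most peaks, 5 each with the highest lower and the lowest upper bound of their TAC share, those at the 5 widest and 5 first peaks per list, and list members; some genes that the rule names are not reported here. Members, lists and rules were chosen with earlier results of these data known. The functions were tested on simulated lists. Python 3.11.15, numpy 2.4.6, pandas 2.3.3, scipy 1.17.1 and matplotlib 3.10.9 were used.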

Additional observations from a re-analysis of the deposited data

How the results depend on the processing

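With a 2 Mb window the distal to rest density was 0.909 in TAC and 0.884 in Sham, on the other side of 1, the TAC to Sham ratio was 1.22, the unshared ratio 1.71, and the TAC shared share 56.8%. The shares in the first 10% of rows were 11.9% in TAC and 12.01% in Sham, and those in genes 50.2% and 55.3%. With 10 Mb the densities were 1.31 and 1.47, the unshared ratio 1.24 and the TAC shared share 64.9%. At the nearly equal threshold the ratio was 1.03, the unshared ratio 1.09, the TAC density 1.23, the shared shares 66.4% in TAC and 68.3% in Sham, and 12 genes had 2-fold more in TAC. In the first 50% of rows densities were 1.36 in TAC and 1.49 in Sham, and median widths 630 and 635 bp. With the TAC list shortened to the length of the Sham list the ratio (0.954) and the unshared ratio (0.865) lay below 1, and shared shares were 69.1% in TAC and 65.9% in Sham. Overlap over 50% of the width gave shared shares of 60.9% and 66.4%, and peaks within 500 bp counted as shared gave 65.0% and 71.7%. With at least 10 peaks per gene the 2-fold counts were 9 and 0. Without 1 autosome the density lay between 1.17 (without chromosome 16) and 1.24 (without 17) in TAC, and between 1.252 and 1.36 in Sham for the same chromosomes. Added after seeing the data, leaving out the 5 chromosomes with sparse windows gave a ratio of 1.04, an unshared ratio of 1.14, densities of 1.39 and 1.58 and a TAC shared share of 67.4%, and leaving out the last Mb gave an unshared ratio of 1.252 and a TAC shared share of 65.4%. Of 77 alternative values 33 stayed near the value as reported. That means within its interval or, for the 2-fold gene counts, which have no interval, within a fixed factor of it. The causes were not tested, apart from the fewer peaks that stricter settings keep by construction. Windows anchored on the ends of the chromosome sequences were not run, since no chromosome lengths were used here. No paired analysis was possible because each group is 1 library. The limits are 1 library per group, peaks without signal values, and a row order read without a source.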
